A study of Mus musculus with 6 samples.

Results

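The 10 poly(ADP-ribose) polymerase (PARP) and partner genes were followed in bulk RNA-seq of mouse piriform cortex, a cortical area that receives odour input: Parp1, Parp3, Parp8, Parp9, Parp10, Parp11, Parp12, Parp14, Dtx3l and Zc3hav1. They are the 10 rows with these names among 53715 genes of the count table, and each has 1 row. The 10 were picked by name with the difference between the Caspase3 and GFP libraries already known, so their differences in this comparison are given as a description and carry no test. All libraries came from Gad2-cre mice, in which Cre is made where Gad2, a gene for GABA synthesis in inhibitory neurons, is active. The Caspase3 group (3 libraries) had received AAV-DIO-Caspase3, a virus that delivers caspase 3, an executioner protease of apoptosis, to cells with Cre, by stereotactic injection into the piriform cortex of 1 side. The GFP group (3 libraries) had received AAV-DIO-GFP in the same way. The labels used here give neither age, sex nor the interval after injection, and do not say whether each library is its own animal, so p-values measure the spread between libraries, which may be technical in part.

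PARP enzymes transfer ADP-ribose from NAD to proteins or nucleic acids, as long chains (Parp1, Parp2 and the tankyrases Tnks and Tnks2) or as single units (most others). Parp1 and Parp3 act at DNA breaks, and the Parp1 protein is a classic substrate of caspase 3. A second set is known as interferon-stimulated: Parp9 and Parp14 carry macrodomains that bind ADP-ribose, Parp9 pairs with the ubiquitin ligase Dtx3l, Parp10, Parp11 and Parp12 are single-unit transferases, and Zc3hav1 encodes ZAP, a zinc finger protein that binds viral RNA and has an inactive PARP domain. By this background, Parp9, Parp10, Parp11, Parp12, Parp14, Dtx3l and Zc3hav1 are called interferon-linked below, and Parp1, Parp3 and Parp8 the other members.

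Total counts were 20424581 to 24227361 in the Caspase3 libraries and 22101015 to 26268377 in the GFP libraries. CPM values are counts scaled to these totals times TMM factors, on which scale 3 counts equal 0.118 to 0.142 CPM. Each of the 10 members passed the filter on low counts. The fewest counts of a member were 36, of Parp3 in GFP replicate 2. The 6 cortical excitatory neuron markers, among them Slc17a7, Tbr1 and Camk2a, were detected in every library. The 2 libraries that stood apart were GFP replicate 3, where 6 striatal projection neuron markers summed to 1076 CPM against 180.4 to 282 CPM in the other libraries, and Caspase3 replicate 1, where 6 oligodendrocyte markers summed to 12325 CPM against 7474 to 8781 CPM in the others.

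The 10 members lie on 6 chromosomes (GRCm38), and 5 of the 7 interferon-linked members lie in a pair of neighbourhoods. Parp14 (ENSMUSG00000034422, 35832874 to 35871544, minus strand), Dtx3l (ENSMUSG00000049502, 35926511 to 35939151, minus strand) and Parp9 (ENSMUSG00000022906, 35938470 to 35972605, plus strand) span 139.7 kb of chromosome 16. Parp9 and Dtx3l start head to head and their gene bodies share 682 bases. Zc3hav1 (ENSMUSG00000029826, 38305286 to 38354603, minus strand) and Parp12 (ENSMUSG00000038507, 39086410 to 39118349, minus strand) lie on chromosome 6, as does Parp11 (ENSMUSG00000037997, 127446840 to 127494261, plus strand). Parp10 (ENSMUSG00000063268, 76231174 to 76243441) is on chromosome 15, Parp3 (ENSMUSG00000023249, 106470322 to 106476949) on chromosome 9, Parp8 (ENSMUSG00000021725, 116854820 to 117025537) on chromosome 13, each on the minus strand, and Parp1 (ENSMUSG00000026496, 180568924 to 180601254, plus strand) on chromosome 1.

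The RefSeq promoter table (GRCm38.p6; 250 bases before to 50 bases after a start) held 8 windows of 7 members, with a pair of starts for Parp11. Parp9, Parp10 and Parp14 had none. The windows were searched on both strands for the core of the interferon-stimulated response element (ISRE), which is GAAA, any 2 bases and GAAA again, the element bound by Irf9 with its partners and by other Irf factors. The upstream Parp11 window alone held it, as did 3.44% of all 32851 windows. A longer core, with a C after the second GAAA, gave the same window (0.819% of all windows), and with 1 mismatch allowed 4 member windows (Dtx3l, the upstream Parp11 window, Parp3 and Parp8) and 35.4% of all windows matched. The core of the gamma-activated site, TTCNNNGAA, a palindrome, also stood in the upstream Parp11 window alone (8.3% of all windows), 7 bases after the start of the first match and overlapping it. Below are the stretches without an annotated exon from 4 windows, 5′ to 3′ on the gene's strand: Parp11, because it held the match, and Dtx3l, Parp12 and Zc3hav1, 3 members with higher levels in the Caspase3 libraries and no full match. Capitals mark the ISRE core, which lies on the opposite strand and begins 44 bases before the annotated start.
Parp11, upstream start (chr6:127446590-127446839, plus strand): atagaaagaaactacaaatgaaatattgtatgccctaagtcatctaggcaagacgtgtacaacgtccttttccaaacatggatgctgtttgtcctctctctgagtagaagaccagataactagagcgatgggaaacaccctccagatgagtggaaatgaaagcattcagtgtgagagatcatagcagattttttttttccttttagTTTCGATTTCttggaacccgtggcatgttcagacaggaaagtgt
Dtx3l (chr16:35939207-35939277, minus strand): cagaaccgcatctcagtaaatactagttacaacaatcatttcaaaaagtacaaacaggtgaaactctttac
Parp12 (chr6:39118350-39118472, minus strand): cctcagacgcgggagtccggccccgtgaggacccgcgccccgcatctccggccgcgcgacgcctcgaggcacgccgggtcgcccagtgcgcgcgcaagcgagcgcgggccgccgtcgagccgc
Zc3hav1 (chr6:38354604-38354853, minus strand): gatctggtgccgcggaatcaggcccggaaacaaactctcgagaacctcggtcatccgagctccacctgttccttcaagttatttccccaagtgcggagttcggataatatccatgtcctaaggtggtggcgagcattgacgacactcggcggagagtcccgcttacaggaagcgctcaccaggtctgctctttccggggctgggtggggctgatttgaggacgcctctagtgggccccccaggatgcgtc
The full windows differed in base composition, with 42% G and C in the upstream Parp11 window, 54.3% in Dtx3l, 58% in Zc3hav1 and 73.7% in Parp12, against a median of 52.7% over all windows. A match in these windows is a description of letters and not a measured site.

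Of the 10 members 6, all interferon-linked, stood 3.13-fold to 6.77-fold higher in the Caspase3 group, and Parp1 and Parp8 had log2 fold changes of -0.13 and 0.29. In bulk RNA, a different number of cells of a type and a different amount of RNA per cell cannot be told apart. In the fit over all 16721 tested genes (edgeR quasi-likelihood test, Benjamini-Hochberg adjusted p under 0.05), these 6 members were called higher and none lower, where 1.53% of all genes were called higher and 0.114% lower. Because the contrast itself chose the members, nothing is read from that count. The same 6 were called with DESeq2 and with limma-voom. Without GFP replicate 2, the fit called none of the 10 and 0.0874% of all genes higher, while the log2 fold changes of the 6 were 1.58 to 2.68.

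**Figure D1:**
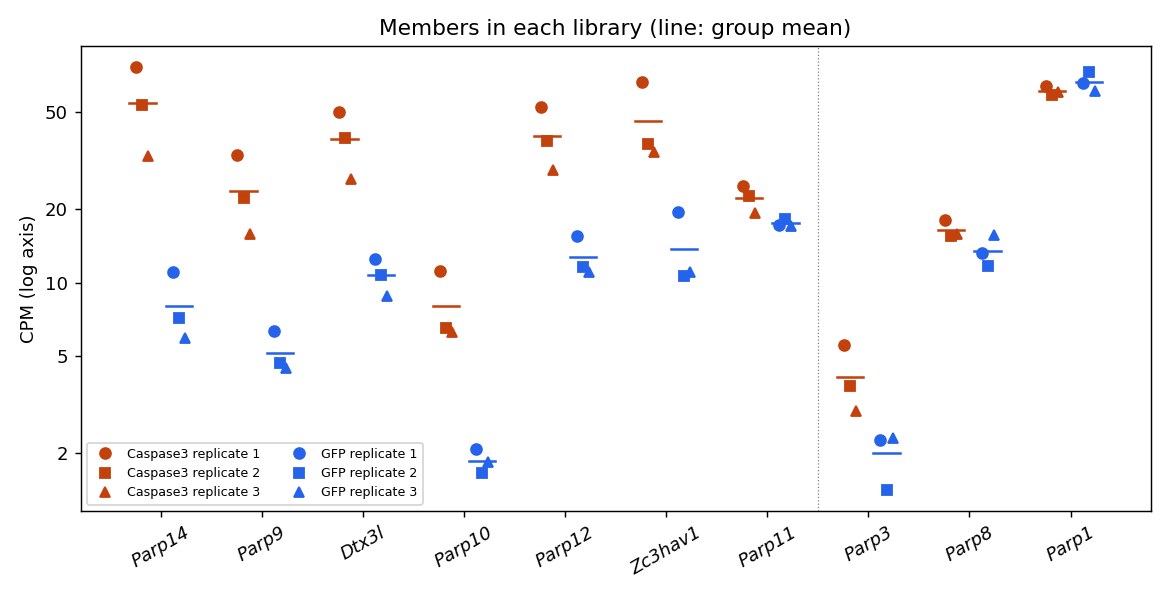
CPM (log axis) of each member in the 3 Caspase3 libraries (left, orange) and the 3 GFP libraries (right, blue); marker shapes give replicate numbers, short lines group means, and the dotted line parts the 7 interferon-linked from the 3 other members. The groups do not overlap for Parp14, Parp9, Dtx3l, Parp10, Parp12, Zc3hav1, Parp11 and Parp3, with the smallest gap in Parp11, and they overlap for Parp8 and Parp1.

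Among the macrodomain genes, Parp14, a transferase known as a cofactor of Stat6, had the largest difference of the 10. Its levels were 76.6, 53.6 and 33.1 CPM in Caspase3 replicates 1, 2 and 3 and 11.1, 7.16 and 5.92 CPM in GFP replicates 1, 2 and 3. The lowest Caspase3 library was 2.99-fold above the highest GFP library, and the log2 fold change was 2.76 ± 0.32 (SE). Parp9, which pairs with Dtx3l, stood at 33.3, 22.3 and 15.9 CPM in the Caspase3 libraries and at 6.33, 4.71 and 4.47 CPM in the GFP libraries, in the same replicate order. Its groups were 2.51-fold apart at their nearest, and the log2 fold change was 2.20 ± 0.27. Dtx3l, the ubiquitin ligase, had 50.1, 39.4 and 26.7 CPM in the Caspase3 libraries and 12.5, 10.8 and 8.86 CPM in the GFP libraries. Its groups were 2.13-fold apart at their nearest, and the log2 fold change was 1.85 ± 0.23.

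The Parp9 and Dtx3l proteins work as a pair, and their transcripts, both higher in the Caspase3 libraries, did not keep 1 ratio. Per length, the Dtx3l to Parp9 ratio was 1.28, 1.5 and 1.43 in Caspase3 replicates 1, 2 and 3 and 1.68, 1.95 and 1.69 in GFP replicates 1, 2 and 3. The ratio was above 1 in each of the 6 libraries and lower in every Caspase3 library than in any GFP library. The 2 genes share 458 exonic bases on opposite strands, 9.4% of the exonic length of Parp9 and 8% of that of Dtx3l. Whether the counting used strand is not stated in what was available here, so reads of that stretch cannot be assigned to 1 of them. The Parp14 to Parp9 ratio, of FPKM, was 1.21, 1.26 and 1.09 in the Caspase3 libraries and 0.916, 0.796 and 0.693 in the GFP libraries, so Parp14 lay above Parp9 per length in the Caspase3 libraries alone.

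Of the single-unit transferases, Parp10 and Parp12 were higher in the Caspase3 group and Parp11 differed little. Parp10, first described as a partner of human MYC, had 11.2, 6.54 and 6.3 CPM in the Caspase3 libraries and 2.09, 1.66 and 1.84 CPM in the GFP libraries. Its groups were 3.01-fold apart at their nearest, the widest gap of the 10 members, and the log2 fold change was 2.10 ± 0.26. An annotated stretch of 205 bases, 4.8% of its exonic length, belongs also to Plec on the same strand. Parp12, which carries CCCH zinc fingers like ZAP, had 52.8, 38 and 29 CPM in the Caspase3 libraries and 15.5, 11.6 and 11.1 CPM in the GFP libraries (log2 fold change 1.65 ± 0.22). Parp11, known in mice for a part in shaping the sperm nucleus, had 24.9, 22.7 and 19.3 CPM in the Caspase3 libraries and 17.3, 18.2 and 17.1 CPM in the GFP libraries. Its groups were 1.07-fold apart at their nearest, its log2 fold change was 0.35 ± 0.12, and it was not called. It was the 1 interferon-linked member outside the called set.

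Zc3hav1, which encodes ZAP, had the largest coefficient of variation of the 10 members among the GFP libraries, 36.2%. It had 66.3, 37 and 34.5 CPM in the Caspase3 libraries and 19.5, 10.7 and 11.1 CPM in the GFP libraries. GFP replicate 1 lay highest in its group, the groups were 1.77-fold apart at their nearest, and the log2 fold change was 1.74 ± 0.30. Zc3hav1 was no longer called without GFP replicate 3 (log2 fold change 1.59), nor on log2(FPKM + 1) (1.33), whereas the other 5 called members were called in both of these fits.

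None of the 3 other members was called. Parp1, the main maker of poly(ADP-ribose) at DNA breaks, had 63.9, 58.8 and 60.4 CPM in the Caspase3 libraries and 65.7, 73.2 and 61.2 CPM in the GFP libraries, with overlapping groups and a log2 fold change of -0.13 ± 0.09. The libraries measure Parp1 RNA and not cleavage of its protein. Parp8, a single-unit transferase with little known function, had 18.1, 15.6 and 15.8 CPM in the Caspase3 libraries and 13.2, 11.7 and 15.7 CPM in the GFP libraries, again with overlap (log2 fold change 0.29 ± 0.14). Parp3, which acts at DNA double-strand breaks, had 5.58, 3.77 and 2.99 CPM in the Caspase3 libraries and 2.28, 1.42 and 2.32 CPM in the GFP libraries. Its groups did not overlap, with a log2 fold change of 1.03 ± 0.30, and it was not called in the fit over all genes, although it was with no filter on low counts. Groups without overlap and a higher Caspase3 level were found for 8 of the 10 members and for 8.95% of all tested genes.

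Levels of different genes were compared per length, as FPKM. In the GFP libraries Parp1 led at 12.6 ± 1.21 FPKM (SD, n = 3), well apart from Parp12 at 3.19 ± 0.609, and Parp10 was lowest at 0.437 ± 0.0496. Parp14 held rank 5 in the Caspase3 libraries at 5.8 ± 2.28 FPKM and rank 8 in the GFP libraries at 0.866 ± 0.289 FPKM. In the Caspase3 libraries Parp1 averaged 11.4 ± 0.403 FPKM and Parp12 9.9 ± 2.92, and their ranges overlapped: in Caspase3 replicate 1, Parp12 reached 13 FPKM against 11.9 for Parp1. Each neighbouring pair of the Caspase3 order from Parp1 down to Parp11 had overlapping ranges (Parp1, Parp12, Zc3hav1, Dtx3l, Parp14, Parp9, Parp11), as had Parp10 and Parp8 below them, and Parp3 was lowest at 1.1 ± 0.349 FPKM. In the GFP order (Parp1, Parp12, Parp11, Zc3hav1, Dtx3l, Parp8, Parp9, Parp14, Parp3, Parp10), the pairs Parp11 and Zc3hav1, Zc3hav1 and Dtx3l, Dtx3l and Parp8, Parp9 and Parp14, and Parp3 and Parp10 overlapped. The Parp14 to Parp1 ratio of FPKM was 0.682, 0.519 and 0.312 in the Caspase3 libraries and 0.0959, 0.0556 and 0.055 in the GFP libraries.

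Summed over the 16 PARP genes, FPKM came to 115 ± 8.4 in the Caspase3 libraries and 98.4 ± 2.36 in the GFP libraries (SD, n = 3). Parp9, Parp10, Parp12, Parp14 and Zc3hav1 made up 33.3%, 22.9% and 19.6% of that sum in Caspase3 replicates 1, 2 and 3, and 9.77%, 6.86% and 6.68% in GFP replicates 1, 2 and 3. The share of Parp1 was 9.97 ± 0.684% in the Caspase3 libraries and 12.8 ± 1.21% in the GFP libraries, and the tankyrase pair Tnks and Tnks2 held 35.4 ± 5.34% and 44 ± 0.82% in the same order. These shares restate the member levels within the family and are not a further measurement.

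**Figure D2:**
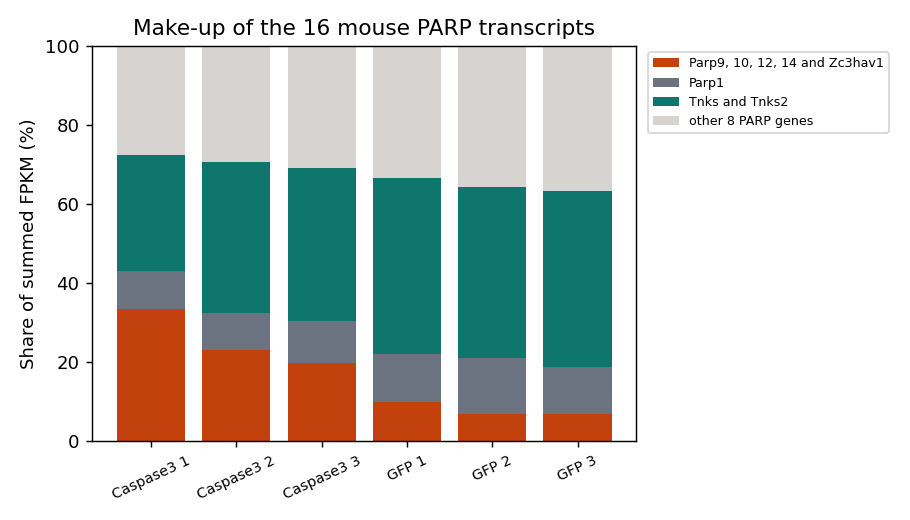
Share of the summed FPKM of 16 mouse PARP genes (percent, vertical axis) in each Caspase3 library (left) and each GFP library (right); colours give the 5 called PARP genes, Parp1, the tankyrases and the other 8 genes. The 5 called genes hold 19.6% to 33.3% in the Caspase3 libraries and 6.68% to 9.77% in the GFP libraries.

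Caspase3 replicate 1 was highest of its group for all 10 members, and Caspase3 replicate 3 lowest for the 7 interferon-linked members and Parp3. Among the 6 called members, replicate 1 exceeded replicate 3 by 1.77-fold to 2.31-fold, and in Parp1 by 1.06-fold. In the GFP group, replicate 1 was highest for the same 6. Without both Caspase3 replicate 1 and GFP replicate 3, the log2 fold changes of the 6 ran between 1.25 (Zc3hav1) and 2.26 (Parp14), and the same 6 members were called. Those of Parp3, Parp8, Parp11 and Parp1 were 0.88, 0.34, 0.24 and -0.22.

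Markers of immune cells differed between the groups as well. The 12 microglia markers summed to 539 to 709 CPM in the Caspase3 libraries and 372 to 437 CPM in the GFP libraries, and 5 of them were called higher, among them Cx3cr1, Csf1r, Aif1 and Trem2, with a median log2 fold change of 0.64 over the 12. The 8 monocyte and neutrophil markers summed to 42.1 to 85.3 and 22.2 to 32 CPM in the same order, with 1 of 4 tested (Lyz2, which microglia also make) called higher by edgeR, 4 by DESeq2 and 2 by limma-voom. Plac8 had 28, 17 and 12 counts in Caspase3 replicates 1, 2 and 3 and 0, 4 and 0 in GFP replicates 1, 2 and 3, and Ly6c2, too low to be tested, had 18, 20 and 4 counts in the Caspase3 libraries and 1, 0 and 1 in the GFP libraries. Mrc1, a macrophage receptor, was 2.1-fold higher with no overlap (adjusted p = 0.145, edgeR). S100a9 had 2 counts in all in the Caspase3 libraries and 0 in the GFP libraries, and Retnlg 0 and 1 in the same order. The 10 T and NK cell markers summed to 7.48, 5.31 and 4.1 CPM in the Caspase3 libraries and 1.77, 0.949 and 4.43 CPM in the GFP libraries, and in GFP replicate 3 Cd4 alone gave 4.12 CPM, so the groups overlap through that library. In this list 2 of 3 tested (Cd3e and Cd8a) were called higher. Cd3d, Klrb1c and Ncr1, too low to be tested, had 22, 3 and 6 counts in all in the Caspase3 libraries and 0 in the GFP libraries. The 6 astrocyte markers summed to 7599 to 10037 and 8515 to 10701 CPM, with Gfap called higher, and the 6 endothelial markers to 388 to 444 and 361 to 473 CPM, with none called by edgeR, DESeq2 or limma-voom and none at an unadjusted p under 0.05. The part of these cell types in the members' differences was not tested. The GABAergic markers, a check of the targeted cells, summed to 129 to 305 CPM in the Caspase3 libraries and 369.9 to 584 CPM in the GFP libraries. Gad2 was the 1 of 6 called by edgeR, lower, as were 0.114% of all tested genes. DESeq2 called 2 of the 6 lower and limma-voom 1. The highest sum was that of GFP replicate 3, the library with the high striatal marker sum. The groups overlapped for Sst and Vip (adjusted p = 0.792 and 0.523, edgeR). For the other 4 they lay apart, lower in the Caspase3 libraries, and the share of all tested genes with such groups was not counted.

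Genes around the members were then tested, since position did not enter the choice of members; this comparison was added after the data were seen. In the edgeR fit, 1777 of all 16721 tested genes had an unadjusted p under 0.05. Within 500 kb of the Parp14, Dtx3l and Parp9 cluster, 9 further protein-coding genes were tested. None was called by edgeR or limma-voom and 1 had an unadjusted p under 0.05, with log2 fold changes of -1.32 (Sema5b, a semaphorin) to 0.29 (Ccdc58). Sema5b was called lower by DESeq2; its highest library was GFP replicate 3, at 16.2 CPM, against 3.41 to 7.21 CPM in the others. Kpna1, a nuclear import factor next to Parp9, had a log2 fold change of -0.30. Within 500 kb of Zc3hav1 and Parp12 and between them, 18 further genes were tested. None was called by edgeR, DESeq2 or limma-voom and 2 had an unadjusted p under 0.05, with a median log2 fold change of -0.05 and a highest of 0.86 for Tbxas1, the thromboxane synthase, which is also made by myeloid cells. Zc3hav1l, a paralogue that neighbours Zc3hav1, had a log2 fold change of 0.14 ± 0.15 (adjusted p = 0.798, edgeR).

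**Figure D3:**
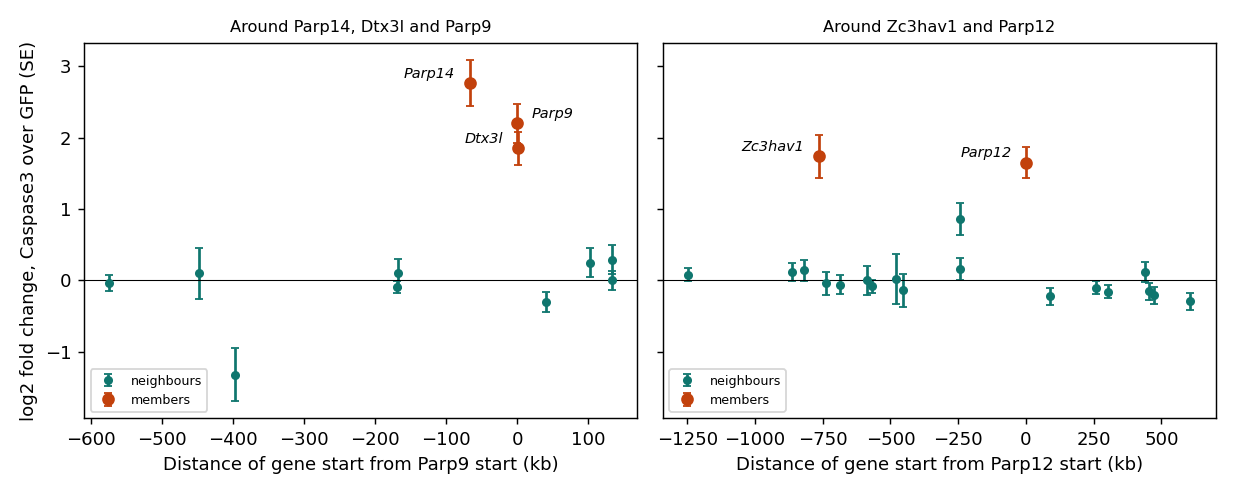
Log2 fold change of Caspase3 over GFP with its SE (vertical axis) for members (orange) and tested neighbouring genes (green), by distance of gene starts from that of Parp9 (left panel) or Parp12 (right panel) in kb. Members lie between 1.65 and 2.76, and the neighbours between -1.32 and 0.29 on the left and up to 0.86 on the right.

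No gene in the rest of the PARP family passed the threshold. In simulated counts, the edgeR fit recovered 8.96% of 1.5-fold changes and 64.2% of 2-fold changes. A gene that was not called, here or in the other lists, may thus still differ by such amounts. Of 8 further family genes (Parp2, Parp4, Parp6, Parp16, Tiparp, Tnks, Tnks2 and the ZAP-like Zc3hav1l), none was called by edgeR, DESeq2 or limma-voom and 2 had an unadjusted p under 0.05. Over all 16721 tested genes, 1777 had such a p in the edgeR fit. The median log2 fold change of the 8 was -0.07, against 0.00 over all tested genes. Tnks2, the tankyrase with the highest level, had 293 ± 39.8 CPM in the Caspase3 libraries and 313 ± 13.1 CPM in the GFP libraries (log2 fold change -0.09 ± 0.12, adjusted p = 0.828). Parp4, a component of vault particles named after its values were seen, had the highest fold change of the 8 (0.52 ± 0.20, adjusted p = 0.381), and its groups did not overlap. The lowest was that of Tiparp, an aryl hydrocarbon receptor target, also named after its values were seen (-0.36 ± 0.13, adjusted p = 0.36).

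Enzymes that read or remove ADP-ribose, the partners of Parp1 and the NAD pathway held no call. Of 13 tested ADP-ribose hydrolase and macrodomain genes, none was called by edgeR, DESeq2 or limma-voom and none had an unadjusted p under 0.05. Such a p was found in the edgeR fit for 1777 of all 16721 tested genes. Macrod2, a hydrolase of single ADP-ribose units, had 64 ± 11.8 CPM in the Caspase3 libraries and 66.6 ± 5.59 CPM in the GFP libraries (log2 fold change -0.06 ± 0.14, adjusted p = 0.921). Of 12 break repair partners, none was called by the same 3 tools and 1 had an unadjusted p under 0.05. That gene was Hpf1, the cofactor that directs Parp1 to serine, at 43.7 ± 5.78 CPM in the Caspase3 libraries and 52.7 ± 3.09 CPM in the GFP libraries (log2 fold change -0.27 ± 0.11, adjusted p = 0.422). Of 10 tested genes of NAD synthesis and consumption, none was called by the 3 tools and 3 had an unadjusted p under 0.05. These 3 had higher levels in the Caspase3 libraries: Qprt, an enzyme of NAD synthesis from quinolinate, by 2.99-fold, Naprt, which uses nicotinic acid, by 1.56-fold, and Cd38, an NAD hydrolase, by 1.5-fold (adjusted p = 0.129, 0.394 and 0.255, edgeR). Higher Caspase3 levels without overlap were found for 4 of the 10, against 8.95% of all tested genes. Nmnat2, the neuronal NAD synthase of axons, had 202 ± 15.3 CPM in the Caspase3 libraries and 226 ± 23 CPM in the GFP libraries (log2 fold change -0.16 ± 0.11, adjusted p = 0.656).

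Among genes that work with ZAP or resemble Dtx3l, 1 of each list rose. Trim25, the ubiquitin ligase that ZAP needs, rose 2.87-fold: it had 57, 36 and 30 CPM in Caspase3 replicates 1, 2 and 3 and 18.9, 12.1 and 11.9 CPM in GFP replicates 1, 2 and 3. Its log2 fold change was 1.52 ± 0.26 (edgeR adjusted p = 0.0231), with no overlap between groups. The call ended without GFP replicate 2 or GFP replicate 3 (log2 fold changes 1.41 and 1.39, edgeR adjusted p = 0.143 and 0.077). It was also lost with limma on log2(FPKM + 1) and on log2(FPKM + 0.1) with no filter. For Trim25, as for Zc3hav1 and the other called members, replicate 1 was highest in both groups. The Zc3hav1 to Trim25 ratio of FPKM was 1.03, 0.908 and 1.02 in the Caspase3 libraries and 0.911, 0.782 and 0.824 in the GFP libraries. The other 12 tested ZAP cofactors, among them the nuclease Khnyn, the helicase Ddx17 and exosome subunits, did not pass. Khnyn was 1.24-fold higher with groups that did not overlap (adjusted p = 0.37, edgeR), while those of Ddx17 overlapped. Higher Caspase3 levels without overlap were found for 3 of the 13 tested ZAP cofactors, Trim25 among them, against 8.95% of all tested genes. Of 5 tested Deltex and related ligases, Dtx4, a Deltex ligase, rose 1.48-fold, with 27.5, 29.3 and 33.6 CPM in the Caspase3 libraries and 21.9, 19.6 and 19.6 CPM in the GFP libraries (log2 fold change 0.57 ± 0.11, adjusted p = 0.0472). That call held in 4 of 16 alternative fits.

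Genes of interferon signalling were also measured. Of 13 tested genes 6 were called higher and 0 lower, where 1.53% of all tested genes were called higher and 0.114% lower. The median log2 fold change of the 13 was 0.48, against 0.00 over all tested genes. Higher Caspase3 levels without overlap were found for 8 of the 13, against 8.95% of all tested genes. Among the 6 were the transcription factors Stat2, Irf9, Irf1 and Irf7 and the feedback protease Usp18, while the receptor genes Ifnar1, Ifnar2, Ifngr1 and Ifngr2 and the kinases Jak1, Jak2 and Tyk2 did not pass. Ifngr1 and Ifnar2 were 1.39-fold and 1.37-fold higher with groups that did not overlap (adjusted p = 0.182 and 0.338, edgeR), and whether the receptor genes differ from the 6 was not tested. Irf9, the DNA-binding partner of Stat2, had 55.2, 28.2 and 26.7 CPM in the Caspase3 libraries and 8.75, 6.25 and 7.63 CPM in the GFP libraries (log2 fold change 2.28 ± 0.28, edgeR adjusted p = 0.00569). For Irf9, as for Irf7 and Usp18 (log2 fold changes 4.11 ± 0.44 and 4.31 ± 0.45, edgeR adjusted p = 0.00405 each), Caspase3 replicate 1 was highest and Caspase3 replicate 3 lowest, the order seen in the interferon-linked members. The marker sums of microglia, T and NK cells, endothelial cells and astrocytes had that order too. Those of monocytes and neutrophils, oligodendrocytes and the neuron types did not. None of the 6 signalling genes was called without GFP replicate 2 (edgeR adjusted p = 0.0562 to 0.113), with log2 fold changes of 1.25 to 4.19. Irf9 shares 123 exonic bases with Rnf31 on the same strand.

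**Figure D4:**
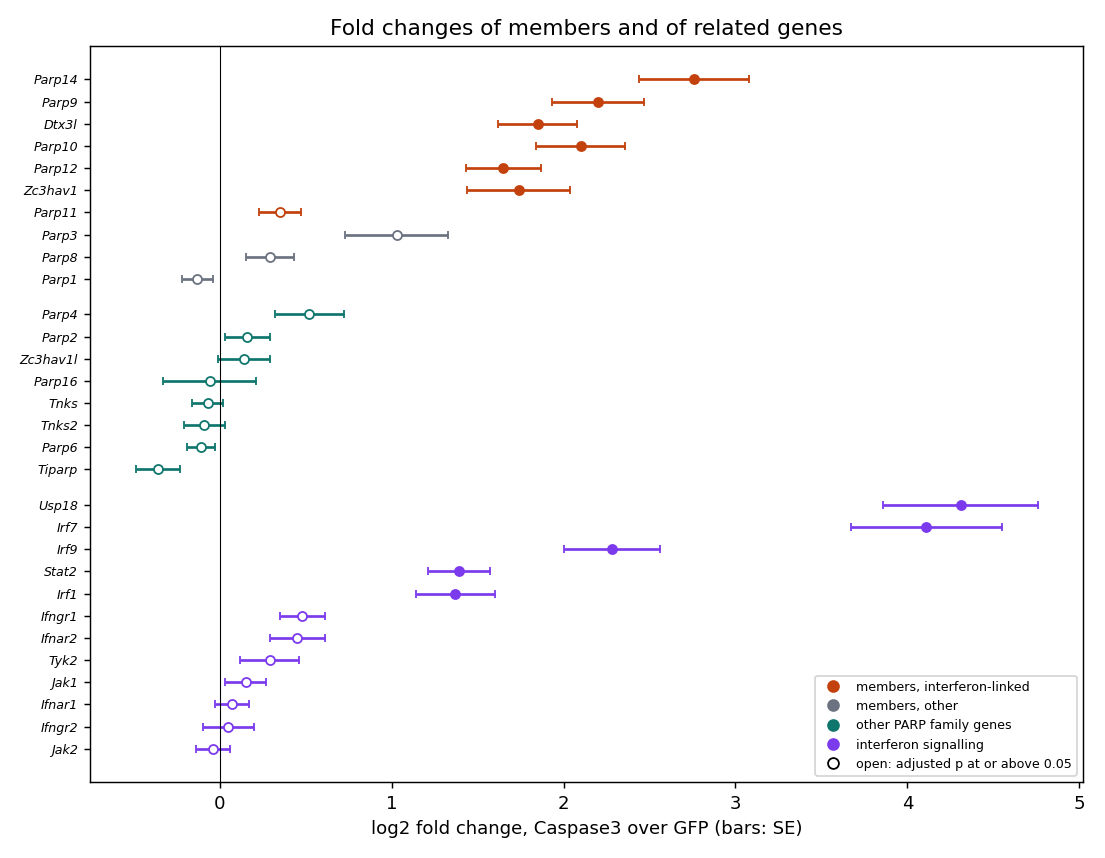
Log2 fold change of Caspase3 over GFP with its SE (horizontal axis) for the members, 8 further PARP family genes and 12 interferon signalling genes; filled points are called in the fit over all genes and open points are not. The 6 called members lie between 1.65 and 2.76, the further family genes between -0.36 and 0.52, and the called interferon signalling genes between 1.37 and 4.31.

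The genes most like the interferon-linked members in profile were found by the root mean square difference of log2 CPM, centred per gene, over the 6 libraries. Among 13229 candidates with a mean of at least 1 CPM, the nearest to the mean profile of the 7 were Tor3a, an ATPase of the torsin family (0.101), Ctss, a lysosomal protease of microglia and other antigen-presenting cells (0.114), Treml2, a receptor of the Trem family (0.120), Eif2ak2, the double-stranded RNA sensor PKR (0.128), and Gbp4, a guanylate-binding GTPase (0.135). Tor3a had 35.7, 27.4 and 19.1 CPM in the Caspase3 libraries and 9.03, 7.24 and 7.98 CPM in the GFP libraries. Of the members themselves, Parp12 was nearest at 0.059 and Dtx3l next at 0.094, while Parp14 (0.501), with the largest fold change of the 7, and Parp11 (0.714), with the smallest, lay farther off. Each of the 7 enters the mean it is measured against, so these distances are not on equal terms with those of other genes. Parp3, at 0.460, was nearer to the profile than Parp8 (0.763) and Parp1 (0.951). Gbp4 shares 60 exonic bases with Gbp9 on the same strand.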

How the data were processed

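Poly(A) RNA of 6 libraries was analysed. Per the labels' protocols, TRIzol was used for extraction and the library kit marks strand; the setting used in counting is not given. The submitters' processing notes list HISAT2, featureCounts, DESeq2, mm10 and GRCm38 without saying which did what. The authors deposited whole-number counts per gene and FPKM values, which equal counts per gene length and per library constant; gene length is per the file headers. After filterByExpr and TMM scaling, counts of all 6 libraries were fitted by group alone (glmQLFit and glmQLFTest of edgeR 4.0.16, R 4.3.3), and the SE is the absolute log2 fold change over the square root of F. FPKM served for levels between genes and for alternatives with limma 3.58.1. DESeq2 1.42.0 covered all genes with a count.

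Members, lists and tests were chosen with earlier results of these data known. Named are the members, up to 4 called genes per list by adjusted p (or the most abundant gene), and the 5 nearest profiles; Stat2 and Irf1 complete a count, and other genes named with a value (such as Sema5b, Ccdc58, Kpna1, Tbxas1, Zc3hav1l, Parp4, Tiparp, Qprt, Naprt, Cd38, Ifngr1 and Ifnar2, and single markers) were chosen after their values were seen. Some listed genes that entered the counts are not reported here by name. Exons came from GENCODE M21. Same-numbered libraries had low positive correlations of their deviations from group means, and the main fit held no replicate block. The fits were tested on simulated counts. There edgeR recovered 8.96%, 64.2% and 95.5% of 1.5-fold, 2-fold and 4-fold changes, and 8.94% of its calls were false. Figures were drawn with Matplotlib 3.10.9.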

Additional observations from a re-analysis of the deposited data

How the results depend on the processing

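The directions of the 10 members, of the 8 called pathway genes and of the 5 genes with the nearest profiles were the same in all 16 alternative fits. The count of members called higher (6) was 7 with no filter on low counts, 5 on log2(FPKM + 1) and 0 on log2(FPKM + 0.1) with no filter, and 0 to 6 when 1 library was left out. It was 0 without GFP replicate 2, where the adjusted p of the 6 were 0.0562 to 0.143 in edgeR, and 5 without GFP replicate 3. In the fit without GFP replicate 2, 8 of the 10 members had an unadjusted p under 0.05, as had 1321 of all 17165 tested genes. Because the contrast itself chose the members, nothing is read from that count. On log2(FPKM + 0.1) with no filter, limma called 0 of 31638 genes and 2301 had an unadjusted p under 0.05. No member was called lower in any fit. The pathway genes called higher (8) numbered 5 on log2(FPKM + 1), 0 on log2(FPKM + 0.1) with no filter, and 0 to 8 when 1 library was left out (0 without GFP replicate 2 and 5 without GFP replicate 3); none was called lower in any fit. With no filter, Qprt and Ifngr1 were also called higher. Dtx4 was the call lost most often, with adjusted p up to 0.249.

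Over all genes, 255 were higher and 19 lower. The counts were 663 and 250 with no filter, 398 and 99 with DESeq2, 160 and 10 on log2(FPKM + 1), 0 and 0 on log2(FPKM + 0.1) with no filter, and 260 and 77 without both Caspase3 replicate 1 and GFP replicate 3. Leaving out 1 library gave 15 to 252 higher and 2 to 33 lower, with 15 and 2 without GFP replicate 2, 131 higher without GFP replicate 3, 33 lower without Caspase3 replicate 1 and 7 lower without Caspase3 replicate 3. With the sample number as a replicate block, 378 were higher and 43 lower, 6 members were called, and Dtx4 was lost (adjusted p = 0.0666). Same-numbered libraries had correlations of deviations of 0.0703, 0.207 and 0.0382, and differently numbered ones of -0.155 to 0.0853. Whether the numbers mark pairs cannot be told from these values. The causes of these shifts were not tested. Counts were fewest for Parp3 and Parp10 among the members, with 138 and 129 in all over the GFP libraries. The Dtx3l to Parp9 ratio was the same from counts per length and from the deposited FPKM.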
